A study of Mus musculus with 12 samples.

Results

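Old and young My-HSCs were compared in 6 RNA-seq libraries, the 3 of old and the 3 of young myeloid-biased haematopoietic stem cells, out of 12 libraries in the series. The members were chosen by label alone, as the libraries named old or young myeloid-biased HSCs, and a gene entered the tests where it reached 1 FPKM in at least 3 of these 6 libraries. FPKM, which counts fragments by transcript length in kilobases and by the mapped fragments of the library, is the unit in which the authors deposited the values. All mice were C57BL6J females, aged 18 months for the old groups and 8 to 10 weeks for the young groups by the sample labels, with an upper limit of 12 weeks in the protocol. My-HSCs were sorted as lineage-negative, Sca-1+, c-kit+, CD48-, CD135- marrow cells with high CD150, and the other 6 libraries came from CD150-low cells of the same sort, the lymphoid-biased Ly-HSCs, at the same ages. Neither age group carried a transgene or received a treatment by the labels. The old mice were supplied by the National Institute on Aging, and the young ones came from the Jackson Laboratory or a UCLA colony, so age and colony of origin cannot be told apart. The 3 libraries of an age and fraction came from 3 independent groups of mice, so the p-values measure the spread between such groups, pooled over both ages and both fractions. My-HSC and Ly-HSC libraries of 1 age may come from the same groups.

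Haematopoietic stem cells keep the blood supplied for life, and with age their number in the marrow rises while the output of each cell falls and tilts toward myeloid and platelet lineages. High CD150 marks the stem cells with the stronger myeloid and platelet bias, and this fraction is the one that expands in old mice. Aged stem cells are known to carry higher transcripts of adhesion molecules, clusterin, stress proteins and class II histocompatibility genes.

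Of 14143 genes in the table, 10458 entered the tests. The FPKM of a My-HSC library summed to between 211455 and 221941, and the read totals behind them are unknown. Genes listed at exactly 0 made up 26.1%, 20.3% and 19.3% of the table in young libraries 1, 2 and 3, and 18.2%, 12.1% and 12.2% in old libraries 1, 2 and 3. Old libraries correlated with each other at 0.878 to 0.963 across genes on the log2 scale and young libraries at 0.797 to 0.877. The median SD of a gene was 0.270 in old and 0.426 in young My-HSCs on that scale, and 0.339 in old and 0.673 in young Ly-HSCs. The fit shares 1 spread per gene over all 12 libraries, so the standard errors below also hold the spread of the Ly-HSC libraries. A value of 0 is given below as listed at 0. Whether the higher share of zeros in the young libraries bears on the genes near 0 there was not settled. The fit with that share as a covariate, given below, can hardly separate it from age.

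Markers of mature blood cells set old library 1 apart from the other 5 My-HSC libraries, and old Ly-HSC library 1 stood apart from its group likewise. Of 59 marker genes of blood lineages in the table, 27 reached 5 FPKM in old library 1, against 10 and 10 in old libraries 2 and 3 and 10, 8 and 10 in young libraries 1, 2 and 3. The 5 granulocyte markers summed to 394.0 FPKM in old library 1, to 80.5 and 78.7 in the other old libraries, and to 36.0, 38.8 and 48.8 in the young libraries. Cd177, a neutrophil surface protein, stood at 72.9, 2.58 and 1.63 FPKM in the old libraries in the order 1, 2 and 3, which is also the order of every triplet below. The integrin subunit Itgam stood at 124, 23.5 and 18.01 FPKM there and at 0, 6.69 and 3.29 in the young libraries. The 10 erythroid markers summed to 121.0, 25.3 and 27.4 FPKM in old and 24.2, 35.8 and 44.4 in young libraries. Among defining markers of other lineages, the T cell receptor genes Cd3d, Cd3e and Cd3g were listed at 0 in all 3 young libraries and reached at most 0.737 FPKM in an old one. The whole list of 11 T and NK cell markers summed to 32.3, 23.6 and 29.4 FPKM in young and 34.8, 43.1 and 35 FPKM in old libraries, without overlap. Its abundant members were Lat, Gata3 and Klrb1c. The 13 HSC markers summed to 632, 727 and 700 FPKM in old and 667, 646 and 683 FPKM in young libraries, so these did not separate the ages or set old library 1 apart. In old Ly-HSCs the granulocyte list summed to 511.0, 99.2 and 104.0 FPKM, and the erythroid list to 158.0, 39.6 and 26.7 FPKM. High sums of these lists in library 1 were thus shared by both old fractions, and their source was not tested.

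**Figure D1:**
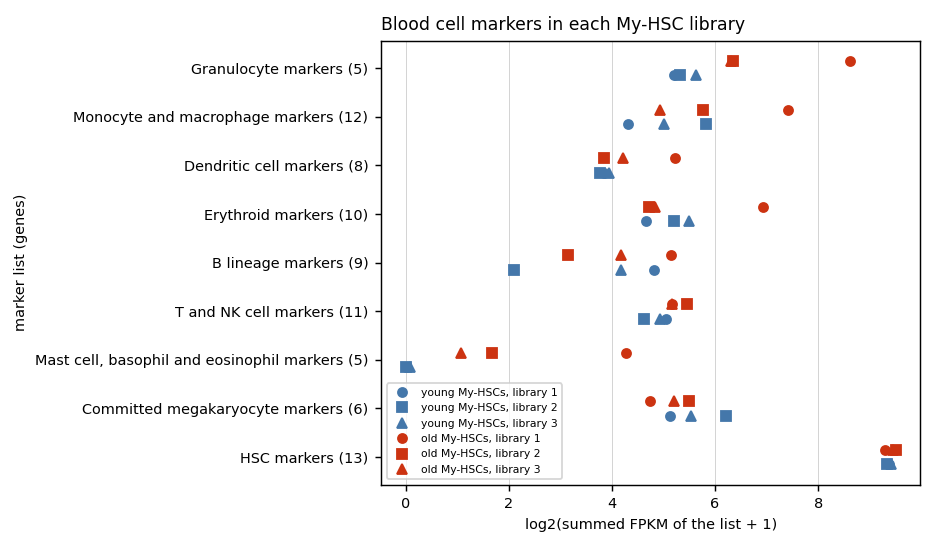
Summed FPKM of marker lists of blood cell types in each My-HSC library, as log2(sum + 1) on the x axis, with the number of genes of each list in brackets; each point is 1 library, with its replicate number as the point shape and the age as the colour. Old library 1 lies to the right of the other 5 libraries for granulocyte (394.0 FPKM), monocyte and macrophage (169.0 FPKM), dendritic (36.6 FPKM), erythroid (121.0 FPKM), B lineage (34.4 FPKM) and mast cell lists (18.3 FPKM), but not for the HSC list.

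The antigens of the sort were checked where the table holds them. Slamf1, which encodes CD150, stood at 33.96, 20.9 and 15.01 FPKM in young and 26.4, 35.3 and 30.96 FPKM in old My-HSCs, and the ages overlapped. Ly6a, which encodes Sca-1, stood at 16.9, 16.1 and 5.06 FPKM in young and 28.6, 38.6 and 31.4 FPKM in old libraries, without overlap but without passing the test (log2 difference 1.45 ± 0.55, adjusted p = 0.531). Cd48 stayed at or under 2.44 FPKM in all 6 libraries, and Flt3, which encodes CD135, stayed between 0.571 and 4.01 FPKM. Kit, which encodes c-kit, was not analysed here. Among 5 antigens of the lineage cocktail in the table, Klrb1c, which encodes NK1.1, went against a lineage-negative gate, at 9.84, 0.0302 and 3.85 FPKM in young and 6.16, 20.1 and 13.3 FPKM in old libraries, while Cd3e, Cd8a, Cd48 and Ly6c1 stayed at or under 2.44 FPKM. The ages overlapped for Klrb1c, and its part in other results was not tested.

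Among the genes that rose in old My-HSCs were Mab21l2, Eya4 and Rorb, near 0 in young cells, and Cd74, Gda and Fyb, present at both ages. By limma with Benjamini-Hochberg adjustment over the 10458 genes, 24 genes rose with age (0.229% of those tested) and 2 fell (0.0191%), while 521 and 232 genes stood at an unadjusted p under 0.05 in these directions. Differences are of the group means of log2(FPKM + 1), given with the standard error from limma, and understate the change of genes near 0. Fewer cells that hold a transcript and less of it per cell cannot be told apart in these bulk libraries. In 13 of the 24 risen genes every young library was under 1 FPKM, so these passed the filter only through the old libraries and had to be higher there. Old and young libraries did not overlap in any of the 26 genes, against no overlap upward in 10.8% and downward in 8.07% of all tested genes. The 26 were chosen by the difference between these same libraries, so their lack of overlap follows in part from the choice and is a description only. Of all tested genes 55.2% were higher in old cells, and the median difference was 0.057. The genes at the edge of the threshold were Cldn5 (adjusted p = 0.0491) just inside it, and Zfp608 (adjusted p = 0.0524) and Socs3 (adjusted p = 0.0525) just outside.

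The number of genes that passed fell when any 1 My-HSC library was left out. Such a fit also has fewer libraries in a group, so lower power and reliance on 1 library cannot be told apart. Without young library 1, 2 or 3 limma called 2, 7 and 9 genes higher, and without old library 1, 2 or 3 it called 5, 0 and 0, with 382 and 366 genes higher at an unadjusted p under 0.05 for the counts of 0. No gene was called lower in these fits except 1 without young library 3. Mab21l2 and Eya4 passed in 4 of the 6 fits, Rorb in 3, Plscr2 in 2, and Rbpjl, Cd74, Gpr183, Matn4, Selp, Ptpn7 and Fyb in 1 each, while the other 15 genes passed in none. With the share of genes at 0 as a covariate, 1 gene was called higher, Dstn, and none lower. Every young My-HSC library had a larger share at 0 than every old one, so this fit can hardly tell that share from age. Nothing is read from the smaller count. All 26 genes kept their sign in every alternative that tested them. Old library 1 was the highest of the 3 old libraries for 10 of the 24 risen genes and the lowest for 10, against the highest of the 3 for 36.8% of all tested genes.

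**Figure D2:**
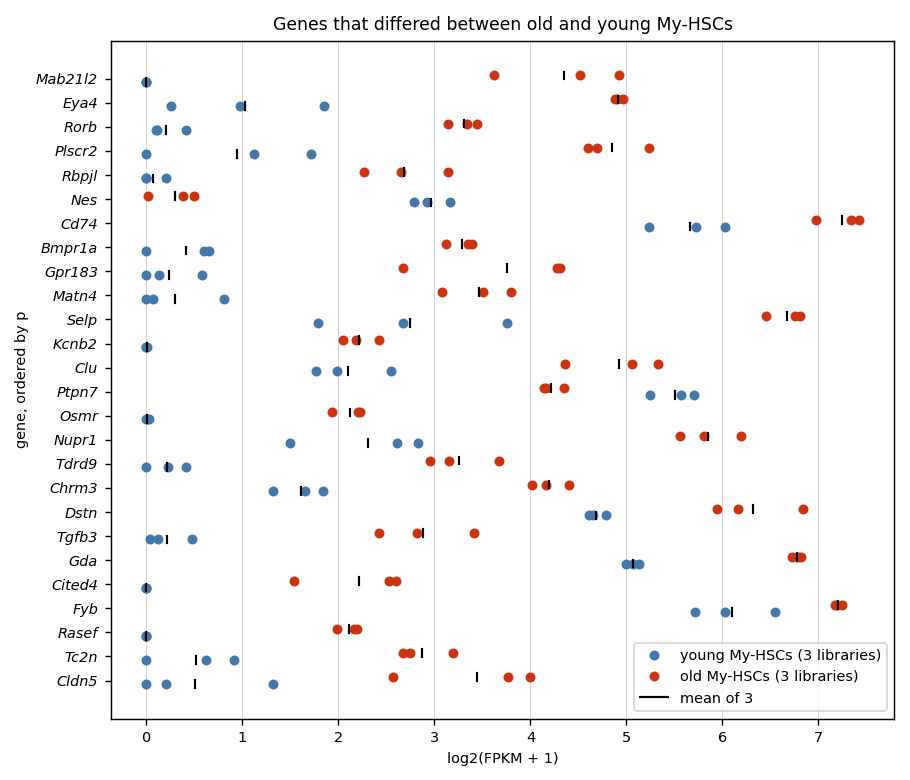
Level of the 26 genes that passed the test, as log2(FPKM + 1) on the x axis, in each of the 3 young (blue) and 3 old (red) My-HSC libraries; each point is 1 library and each tick the mean of 3. Old libraries lie to the right of young ones for 24 genes and to the left for Nes and Ptpn7, with no overlap in any row.

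RefSeq (GRCm38.p6) gave a start-site sequence for 21 of the 26 genes. The 250 bases before the first listed start overlapped no exon of the GENCODE M21 annotation for 7 of them, Rorb, Selp, Tdrd9, Cited4, Fyb, Tc2n and Cldn5. These windows were searched on both strands for a short letter pattern assigned to each of 5 factor families of blood cells, with N for any base. The AP-1 letters searched were TGANTCA. For STAT factors they were TTCNNNGAA. For GATA factors the search used AGATAA. For ETS factors it used CGGAAG, and for RUNX factors the letters were TGTGGT. Selp and Fyb are shown because each holds a match, in capitals, and Rorb, the transcription factor gene with the smallest p among the 7, because it holds none. Each is printed 5′ to 3′ on the strand of its gene.
Rorb (chr19:19111197-19111446, minus strand): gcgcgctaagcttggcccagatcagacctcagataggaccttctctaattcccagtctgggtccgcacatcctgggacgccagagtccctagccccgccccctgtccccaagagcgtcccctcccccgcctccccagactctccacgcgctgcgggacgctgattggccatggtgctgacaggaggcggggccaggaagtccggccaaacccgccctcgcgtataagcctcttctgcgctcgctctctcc
Selp (chr1:164115014-164115263, plus strand): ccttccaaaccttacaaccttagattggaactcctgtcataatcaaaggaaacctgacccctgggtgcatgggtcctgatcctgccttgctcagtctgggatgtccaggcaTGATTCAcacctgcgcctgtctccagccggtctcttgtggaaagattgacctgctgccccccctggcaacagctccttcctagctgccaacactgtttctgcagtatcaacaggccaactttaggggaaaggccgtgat
Fyb (chr15:6579597-6579846, plus strand): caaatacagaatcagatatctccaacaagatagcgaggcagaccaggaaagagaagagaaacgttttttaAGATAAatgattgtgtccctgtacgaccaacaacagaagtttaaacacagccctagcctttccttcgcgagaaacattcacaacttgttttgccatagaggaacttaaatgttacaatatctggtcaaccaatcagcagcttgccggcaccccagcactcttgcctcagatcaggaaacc
The match in Selp is to the AP-1 letters, with T at the open position N, and begins 139 bases before the start. That in Fyb is to the GATA letters and begins 180 bases before its RefSeq start. Binding was not tested. That start lies inside Fyb as GENCODE M21 places the gene (chromosome 15, 6522853 to 6663313), so the window does not precede the annotated gene. The other 5 windows held no match to any of the 5 motifs, and the matches did not overlap another motif. Among all 32851 windows of this length in the RefSeq table, 6.75% held the AP-1 letters, 9.99% those of GATA, 7.02% those of STAT, 13.6% those of ETS and 14.05% those of RUNX, so 1 AP-1 match and 1 GATA match in 7 windows are descriptions of these sequences only. G and C made up 66.0% of the Rorb window, 53.6% of that of Selp and 43.2% of that of Fyb, against a median of 52.4% over all windows.

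Regulators of transcription were among the genes that rose. Mab21l2, a gene of the male-abnormal-21 family known from eye and embryonic development, had no value above 0 in any young My-HSC library and stood at 11.3, 29.3 and 21.9 FPKM in the old ones (adjusted p = 0.00383). It lies on chromosome 3 from 86545581 to 86548629 inside Lrba, on the other strand, and 1097 bases are exonic in both genes. Lrba, which encodes a vesicle trafficking protein, stood at 15.6, 19.5 and 22.9 FPKM in young and 23.8, 23.6 and 22.9 FPKM in old libraries (adjusted p = 0.952), and whether the counting used strand is unknown here. Eya4, an eyes-absent protein with coactivator and phosphatase activity, on chromosome 10 (23102963 to 23350786), rose from 0.195, 2.61 and 0.962 to 30.1, 28.9 and 28.5 FPKM, a log2 difference of 3.89 ± 0.47 (adjusted p = 0.00723). The 3 old libraries were within 2 FPKM of each other, while the young ones varied widely at a low level. The other 5 tested members of its list, Eya1, Eya2, Eya3, Dach1 and Six5, did not pass. The coactivator Eya2 was the most abundant of them, at 102, 99.9 and 107 FPKM in young and 105, 89.4 and 82.96 FPKM in old libraries (log2 difference -0.16 ± 0.17), and Dach1 stood at 37.05, 40.5 and 35.3 against 23.4, 29.5 and 26.5 FPKM (log2 difference -0.50 ± 0.32, adjusted p = 0.888).

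Rorb, an orphan nuclear receptor of the retinoid-related family known from retina and brain, rose from 0.0731, 0.0765 and 0.331 to 9.898, 7.85 and 9.12 FPKM (log2 difference 3.10 ± 0.40, adjusted p = 0.00971). It was the 1 of 27 tested nuclear receptors that passed, and 20 of the 27 stood higher in old cells, at a median difference of 0.41, which was 0.18 without young library 1. Of the 27, 2 passed the filter only through the old libraries and had to be higher, and over all 33 in the table the median was 0.295. Nupr1, a small stress-induced chromatin protein, rose from 1.81, 6.097 and 5.11 to 46.2, 72.2 and 54.96 FPKM (log2 difference 3.54 ± 0.57, adjusted p = 0.0209). All 3 old libraries were above the highest young one for Rorb and for Nupr1. Cited4, a coactivator that binds the CBP and p300 acetyltransferases, was listed at 0 in every young My-HSC library and at 4.75, 1.91 and 5.05 FPKM in the old ones (adjusted p = 0.0315). In Ly-HSCs Cited4 was listed at 0 in 5 of 6 libraries and at 0.266 FPKM in the other.

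Rbpjl, a relative of the Notch effector Rbpj known from the pancreas, rose from 0, 0.152 and 0 to 3.83, 5.301 and 7.81 FPKM (log2 difference 2.62 ± 0.39, adjusted p = 0.0173), and its neighbour Matn4, which encodes the extracellular matrix protein matrilin-4, rose from 0, 0.758 and 0.0529 to 7.44, 10.4 and 12.9 FPKM (log2 difference 3.17 ± 0.48, adjusted p = 0.0173). Both genes follow the same order of libraries at old age, lowest in old library 1 and highest in old library 3. They lie head to head on chromosome 2, Matn4 on the minus strand from 164389393 to 164405160 and Rbpjl on the plus strand from 164403141 to 164415448, in GENCODE M21 on GRCm38. The 2 genes overlap over 2020 bases, of which 149 are exonic in both, so reads from that stretch cannot be told apart here. The next gene beyond Rbpjl, Sdc4, which encodes the heparan sulfate proteoglycan syndecan-4, stood at 0, 5.51 and 2.77 FPKM in young and 6.96, 9.76 and 10.7 FPKM in old libraries (log2 difference 1.79, adjusted p = 0.473), without overlap of the ages. Sys1 and Pigt, the following genes of that stretch with a test, stood at log2 differences of -0.20 (adjusted p = 0.988) and -0.40 (adjusted p = 0.931).

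Several receptors and a ligand rose as well. Bmpr1a, through which bone morphogenetic proteins signal, rose from 0, 0.513 and 0.571 to 7.71, 9.17 and 9.53 FPKM (log2 difference 2.87 ± 0.43, adjusted p = 0.0173). Tgfb3, a transforming growth factor beta ligand, rose from 0.389, 0.0234 and 0.0897 to 6.05, 4.38 and 9.65 FPKM (log2 difference 2.68 ± 0.46, adjusted p = 0.03098). Tgfb3 overlaps Ttll5 on the other strand without a shared exonic base. These 2 were the called members among 35 tested genes of the TGF-beta, BMP and activin pathway, of which 14 were higher and the median was -0.05 (0.03 without old library 1). Id2, an inhibitor of helix-loop-helix factors and a target of that pathway, stood at 0, 0 and 0.637 FPKM in young and 29.6, 13.7 and 13.98 FPKM in old libraries without passing (adjusted p = 0.184). The coreceptor Tgfbr3 stood at 39.7, 29.9 and 36.1 against 15.5, 33.5 and 29.3 FPKM, with overlap of the ages.

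Osmr, the receptor subunit for oncostatin M, a cytokine of the interleukin-6 family, rose from 0, 0.00578 and 0.0167 to 3.69, 3.61 and 2.83 FPKM (log2 difference 2.11 ± 0.33, adjusted p = 0.0185). It was the 1 called gene among 43 tested cytokine and niche receptors, of which 25 were higher with a median of 0.11 (0.0053 without young library 1). The others had smaller differences for their spread, among them Csf3r, the G-CSF receptor, at 36, 31.8 and 42.5 FPKM in young and 113, 48.4 and 54.5 FPKM in old libraries (adjusted p = 0.529). Csf3r also counts as a granulocyte marker and was highest in old library 1. Csf2rb2, which encodes an interleukin-3 receptor subunit, stood lower in old cells, at 11.4, 11.8 and 9.83 against 3.13, 5.61 and 3.43 FPKM (adjusted p = 0.6896). Gpr183, a receptor for oxysterols that guides leukocyte migration, rose from 0.4904, 0 and 0.0952 to 5.36, 18.4 and 18.9 FPKM (log2 difference 3.52 ± 0.53, adjusted p = 0.0173). Its level in old library 1 was lower than in the other 2 old libraries, and it lies inside Ubac2, which stood at 18.7, 18.1 and 21.4 and 25.1, 24.5 and 20.2 FPKM in young and old libraries (adjusted p = 0.983). Chrm3, a muscarinic acetylcholine receptor, rose from 2.58, 1.504 and 2.15 to 20.1, 15.2 and 16.9 FPKM (log2 difference 2.59 ± 0.43, adjusted p = 0.0261). Of 28 tested G protein-coupled receptors of leukocytes and stem cells, 21 stood higher at a median of 0.60 (0.057 for all genes). But 4 of these receptors passed the filter only through the old libraries and had to be higher. Over all 54 such receptors in the table the median was 0.32 (0.042 for all genes in the table). Cysltr2, a receptor for cysteinyl leukotrienes, was next by p, at 6.71, 24.97 and 13.1 in young and 76.7, 80.7 and 84.9 FPKM in old libraries (adjusted p = 0.0901). Kcnb2, a voltage-gated potassium channel subunit, was listed at 0, 0 and 0.004504 FPKM in young and at 4.35, 3.14 and 3.54 FPKM in old libraries (adjusted p = 0.0185).

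Surface and secreted proteins follow. Selp, which encodes P-selectin, the adhesion molecule of platelets and endothelium, rose from 2.46, 5.38 and 12.5 to 86.8, 107 and 111 FPKM (log2 difference 3.93 ± 0.60, adjusted p = 0.0184). Clu, which encodes the secreted chaperone clusterin, rose from 2.41, 4.85 and 2.97 to 19.6, 39.2 and 32.4 FPKM (log2 difference 2.82 ± 0.45, adjusted p = 0.0185). In both genes the lowest old library was well above the highest young one. The 2 genes were the called members among 31 tested platelet and megakaryocyte genes, of which 20 were higher with a median of 0.20. Itgb3, the beta subunit of the platelet fibrinogen receptor, stood at 11.7, 9.64 and 23.4 in young and 41.7, 67.6 and 58.5 FPKM in old libraries (adjusted p = 0.196), and Sdpr, a caveolar protein, at 32.3, 34.7 and 45.2 and 107, 152 and 146 FPKM (adjusted p = 0.2304). Markers of committed megakaryocytes were not higher as a list, but the table holds only part of that list. Among 5 tested, 2 were higher, with a median of -0.40. Itga2b, the partner of Itgb3 in that receptor, stood at 27.2, 36.1 and 37.2 FPKM in young and 18.6, 25.7 and 23.9 FPKM in old libraries (log2 difference -0.54 ± 0.25, adjusted p = 0.709). Without old library 1 that median was -0.20, and without young library 1 it was -0.61.

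Cldn5, the tight junction protein claudin-5 of endothelium, rose from 0, 1.5 and 0.154 to 12.6, 14.9 and 4.94 FPKM (log2 difference 2.94 ± 0.54, adjusted p = 0.0491). With a block shared by My-HSC and Ly-HSC libraries of 1 age and number, its adjusted p was 0.0512. The other endothelial genes named here did not pass. Cdh5, which encodes VE-cadherin, was at or under 0.193 FPKM in all 6 libraries, and Pecam1, the adhesion molecule CD31, stood at 23.9, 22.2 and 15.9 FPKM in young and 13.6, 16.7 and 13.8 FPKM in old libraries. Of 4 tested endothelial and stromal markers 2 were higher, with a median of -0.07 that was 0.15 without old library 1 and 0.40 without young library 1, and the list summed to 47.8, 38.3 and 23.2 FPKM in young and 41.2, 47.2 and 41.6 FPKM in old libraries. Cd74, the invariant chain that escorts class II histocompatibility molecules, rose from 36.7, 51.99 and 64.2 to 170.2, 161 and 125 FPKM (log2 difference 1.58 ± 0.24, adjusted p = 0.0173). Among 13 tested class II genes 10 were higher with a median of 1.25, and Cd74 was the 1 that passed. H2-Aa, a class II alpha chain, stood at 0, 7.53 and 7.79 in young and 27.9, 47.5 and 22.8 FPKM in old libraries (adjusted p = 0.201), and H2-Eb1, a beta chain, at 0, 4.42 and 11.6 and 49.2, 54.4 and 26.8 FPKM (adjusted p = 0.365). The 3 did not peak in old library 1 alike: it was the highest old library for Cd74 and in the middle for both chains. Near-identical histocompatibility genes can share reads, and how the authors split them is unknown here.

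Inside the cell, Plscr2, a phospholipid scramblase, rose from 0, 2.28 and 1.18 to 24.9, 36.8 and 23.3 FPKM (log2 difference 3.90 ± 0.53, adjusted p = 0.0144). Its relative Plscr1 stood at 19.3, 14.6 and 6.67 FPKM in young and 72.7, 50.6 and 50.3 FPKM in old libraries and missed the threshold (log2 difference 2.11 ± 0.41, adjusted p = 0.0592), and another relative, Plscr3, stood lower at 85.3, 53.4 and 44.6 against 34.6, 43.7 and 44.02 FPKM (adjusted p = 0.724). Of 18 tested scramblases and flippases 10 were higher, with a median of 0.10 (0.18 without old library 1). Gda, guanine deaminase, an enzyme of purine breakdown, rose from 32.5, 30.9 and 33.95 to 112, 105 and 109.7 FPKM (log2 difference 1.71 ± 0.30, adjusted p = 0.03098), with the 3 libraries of either age within 8 FPKM of each other. Dstn, which encodes the actin-severing protein destrin, rose from 23.5, 26.5 and 24.1 to 114, 70.7 and 60.4 FPKM (log2 difference 1.63 ± 0.28, adjusted p = 0.0304). Fyb, an adaptor of integrin and immune receptor signalling, rose from 51.5, 92.3 and 64.3 to 150.5, 143 and 144 FPKM (log2 difference 1.10 ± 0.19, adjusted p = 0.0315). Gda, Dstn, Fyb, Cd74 and Ptpn7 were the called genes that exceeded 20 FPKM in every young library.

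The remaining risen genes stayed under 12 FPKM in every My-HSC library. Tdrd9, a helicase of the piRNA pathway that silences transposons in germ cells, rose from 0, 0.167 and 0.333 to 6.73, 11.8 and 7.89 FPKM (log2 difference 3.05 ± 0.50, adjusted p = 0.0216). No other piRNA gene passed: 11 of 16 in the table failed the filter on low values, and among the other 4 tested, Tdrd7 had the smallest p, at 29.3, 12.2 and 13.8 FPKM in young and 9.99, 14.2 and 9.52 FPKM in old libraries (adjusted p = 0.952). Rasef, a RAB-family GTPase, was at 0 in every young library and stood at 3.56, 2.96 and 3.48 FPKM in the old ones (adjusted p = 0.0384). Tc2n, a protein with tandem C2 domains, rose from 0.5401, 0.889 and 0 to 5.37, 8.16 and 5.73 FPKM (log2 difference 2.36 ± 0.43, adjusted p = 0.0429). Mab21l2, Cited4 and Rasef belong to 18 genes, of 14143 in the table, that were listed at 0 in all 3 young libraries and reached at least 1 FPKM in all 3 old ones. The reverse was shown by 0 genes, but more genes were at 0 in young libraries (26.1%, 20.3% and 19.3%) than in old ones (18.2%, 12.1% and 12.2%). What part this has in the count of 18 was not tested. Among the other 15, which did not pass the test, Agtr1a, an angiotensin II receptor, stood at 9.02, 4.08 and 2.02 FPKM in old libraries (adjusted p = 0.182), and F13a1, a subunit of coagulation factor XIII, at 2.34, 6.46 and 4.798 FPKM (adjusted p = 0.204). Il1b, which encodes the inflammatory cytokine interleukin-1 beta, stood at 41.1, 2.02 and 1.12 FPKM (adjusted p = 0.707), almost all of it in old library 1. In old Ly-HSCs it stood at 48.5, 1.22 and 0.0558 FPKM, also mostly in library 1. Agtr1a, F13a1 and Il1b were chosen after their values were seen.

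2 genes fell in old My-HSCs. Nes, which encodes the intermediate filament nestin of neural and mesenchymal progenitors, fell from 7.98, 5.93 and 6.57 to 0.00961, 0.407 and 0.307 FPKM (log2 difference -2.66 ± 0.40, adjusted p = 0.0173). Ptpn7, a haematopoietic tyrosine phosphatase that acts on MAP kinases, fell from 46.5, 51.1 and 36.99 to 16.6, 16.9 and 19.4 FPKM (log2 difference -1.29 ± 0.20, adjusted p = 0.0185). Of 32 tested tyrosine and dual-specificity phosphatases 22 were higher with a median of 0.35 (0.18 without young library 1), and Ptpn7 was the 1 that passed. The receptor phosphatase Ptprk stood at 2.34, 2.904 and 1.12 FPKM in young and 11.2, 11.8 and 10.9 FPKM in old libraries (adjusted p = 0.381), in the opposite direction. The next genes by p among those lower in old cells were abundant and had smaller log2 differences than Nes. The zinc finger protein Zfp608 stood at 158, 146 and 158 FPKM in young and 73.1, 87.5 and 84.7 FPKM in old libraries (log2 difference -0.91 ± 0.17, adjusted p = 0.0524). Afap1l1, an actin filament associated protein, stood at 188, 144 and 121 and 57.1, 78.6 and 82.96 FPKM (log2 difference -1.03 ± 0.22, adjusted p = 0.106), and the exchange factor Dennd1c at 156, 133 and 122 and 88.9, 73.1 and 79.2 FPKM (adjusted p = 0.155). The glutamine transporter Slc1a5 stood at 36.3, 44.5 and 49.7 and 23.9, 23.96 and 15.5 FPKM (adjusted p = 0.173), and the splicing factor Srsf2 at 202, 206 and 165 and 85.1, 133 and 124 FPKM (adjusted p = 0.196). Dtnbp1, Lax1 and Kmt5c completed the 10 lowest by p, at log2 differences of -0.71 ± 0.17, -1.02 ± 0.26 and -1.03 ± 0.26. None of these 8 overlapped between the ages, against no overlap downward in 8.07% of all tested genes. They were chosen by their p, so this is a description only.

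The Ly-HSC libraries show which of these genes were also present in the other CD150 fraction. All 3 old My-HSC libraries were above all 3 old Ly-HSC libraries for 19 of the 24 risen genes (79.2%), against 9.52% of all tested genes, and 10 of the 24 stayed under 2 FPKM in all 6 Ly-HSC libraries, against 2.55% of all tested genes. The 24 were chosen for high values in these same old My-HSC libraries, so both shares are fixed in part by the choice and are a description only. Osmr was listed at 0 in 5 of 6 Ly-HSC libraries and at 0.0628 FPKM in the other. Clu stood at 0.818, 1.29 and 0.558 FPKM in old Ly-HSCs, Gpr183 at 1.504, 1.02 and 0.0176, Kcnb2 at 0.401, 0.0306 and 0.2203 and Matn4 at 0, 0.509 and 1.98 FPKM. Cldn5 was listed at 0 in all 3 old Ly-HSC libraries. Tgfb3 was present in Ly-HSCs at both ages, at 0.653, 1.57 and 2.29 FPKM in young and 1.01, 1.83 and 2.48 FPKM in old libraries. Of the 24 genes, 23 were higher in old than young Ly-HSCs by sign (62.1% of all tested genes were), and 8 passed there, which is 33.3% of the 24 and 21.6% of the 37 genes called higher in old Ly-HSCs. Those 8 were Mab21l2, Eya4, Rorb, Plscr2, Cd74, Bmpr1a, Chrm3 and Gda.

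A gene that passed in 1 subset and not in the other is not thereby shown to differ, and the test of that difference itself called none. That test, of the My-HSC difference less the Ly-HSC difference, passed for 0 of 10458 genes by limma, with 600 at an unadjusted p under 0.05 (5.74%) and a smallest adjusted p of 0.569. Of the 24 risen genes 13 had an unadjusted p under 0.05 for this difference, which contains the My-HSC difference they were chosen by, so nothing is read from that share. The largest such difference among them was that of Cldn5, at 3.36 ± 0.77 (unadjusted p = 0.000757, adjusted p = 0.643), and the smallest p was that of Osmr, at 2.08 ± 0.47 (unadjusted p = 0.000711, adjusted p = 0.643). Rbpjl stood at 2.36 ± 0.55 and Tgfb3 at 2.51 ± 0.65, with adjusted p of 0.643 and 0.643. Over all genes, the smallest p belonged to the zinc finger gene Zfp456, which stood at 10.1, 14.2 and 10.9 FPKM in young and 6.74, 3.48 and 5.25 FPKM in old My-HSCs, and at 0, 0.712 and 0.0678 and 4.88, 7.78 and 6.75 FPKM in young and old Ly-HSCs (difference -3.66 ± 0.62, adjusted p = 0.569). P3h2, a collagen prolyl hydroxylase, had the same pattern, at 18.9, 22.6 and 9.9 against 5.09, 5.79 and 4.704 FPKM in My-HSCs and 0.0599, 0.333 and 0.337 against 1.62, 4.702 and 3.01 FPKM in Ly-HSCs. The zinc transporter gene Slc39a3 had the reverse, at 1.28, 1.33 and 1.36 against 5.79, 3.86 and 3.101 FPKM in My-HSCs and 13.5, 10.7 and 7.91 against 3.701, 3.96 and 2.44 FPKM in Ly-HSCs (difference 2.56 ± 0.60, adjusted p = 0.643).

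**Figure D3:**
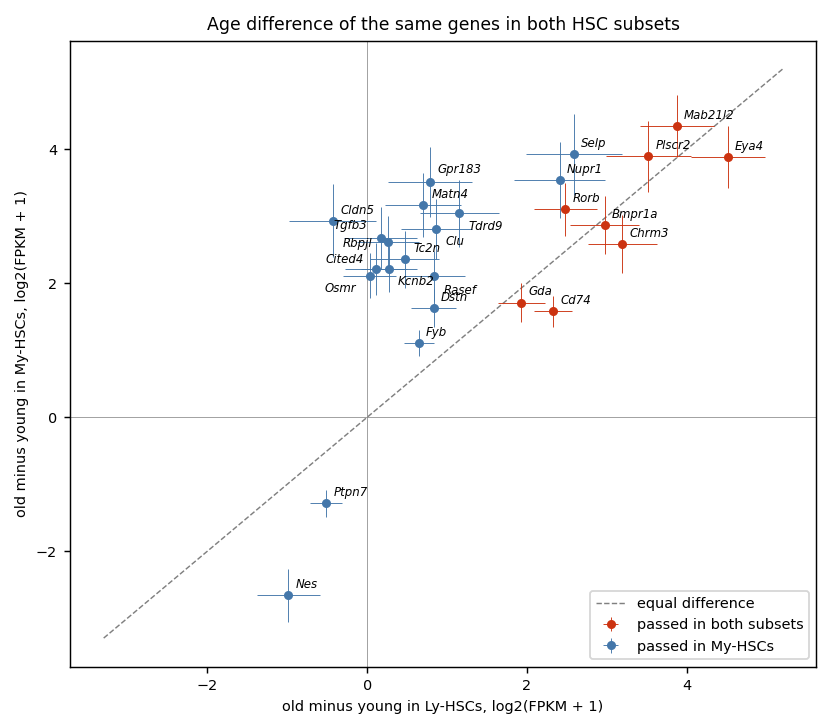
Age difference of the 26 genes that passed in My-HSCs, in log2(FPKM + 1), with that in Ly-HSCs on the x axis and that in My-HSCs on the y axis; bars are standard errors from limma and the dashed line marks equal differences. The 8 genes that passed in both subsets (red) lie near the line, while Cldn5, Osmr, Rbpjl, Tgfb3, Cited4 and Kcnb2 lie between 2.11 and 2.94 in My-HSCs and between -0.43 and 0.27 in Ly-HSCs.

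Gene lists place these genes among others of the same function. Genes that the field reports as higher in aged HSCs had 43 of 45 tested members higher in old My-HSCs, against 55.2% of all tested genes. Their median was 1.71 against 0.057 for all genes. Of the 45, 10 passed upward, against 0.229% of all tested genes. But 5 of the 45 passed the filter only through the old libraries and had to be higher. This list was drawn up with earlier results of these data known and is no independent evidence of direction. Its members outside the 26 with the smallest p were Aldh1a1, a retinaldehyde dehydrogenase, at 37.5, 50.4 and 40.1 in young and 138, 243 and 187 FPKM in old libraries (adjusted p = 0.0592), and Mt1, a metallothionein, at 0, 0.472 and 2.37 and 32.7, 26.9 and 26.5 FPKM (adjusted p = 0.0833). Tm4sf1, a tetraspanin-like surface protein, stood at 0, 0 and 2.06 and 6.71, 4.598 and 7.88 FPKM (adjusted p = 0.0901) and the cation channel Trpc1 at 0, 0.942 and 0.444 and 3.81, 3.76 and 4.41 FPKM (adjusted p = 0.124). No library of 1 age reached the other age in these 4, against no overlap upward in 10.8% of all tested genes. The 4 were chosen by their p, so this is a description only. The median was 1.90 without old library 1.

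HSC identity genes were split evenly, with 18 of 36 higher, a median of 0.04 (0.08 without young library 1) and none that passed. Vldlr, a lipoprotein receptor, stood at 0.366, 0.664 and 2.06 in young and 6.12, 7.91 and 13.1 FPKM in old libraries (log2 difference 2.33 ± 0.45, adjusted p = 0.0592). The homeobox genes Hoxa7 and Hoxa9 stood lower, Hoxa7 at 81.6, 63.6 and 56.4 FPKM in young and 21.1, 38.5 and 53.9 FPKM in old libraries, without passing (adjusted p = 0.419). Hoxa9 stood at 50.6, 32.3 and 33.4 FPKM in young and 20.6, 22.04 and 30.7 FPKM in old libraries (adjusted p = 0.5501).

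Immediate early and inflammatory genes stood higher in old cells without any member passing. Of 22 immediate early genes 20 were higher with a median of 1.27. That median was 0.33 without young library 1 and was 0.99 without old library 1. Junb, an AP-1 subunit, stood at 109.5, 99.3 and 199 FPKM in young and 339.6, 335 and 315 FPKM in old libraries (log2 difference 1.34 ± 0.27, adjusted p = 0.0738), and Btg2, an antiproliferative gene, at 15.8, 17.9 and 41.3 and 77.3, 66.2 and 77.5 FPKM (adjusted p = 0.197). Socs3, the feedback inhibitor of cytokine signalling, stood at 0, 3.29 and 4.73 and 73, 18.97 and 32.5 FPKM (log2 difference 3.66 ± 0.69, adjusted p = 0.0525), and the chemokine Cxcl16 at 0, 2.61 and 1.09 and 38.7, 17.7 and 22.9 FPKM (adjusted p = 0.0949). Ptgs2, which encodes the prostaglandin synthase COX-2, stood at 0, 0.236 and 0.801 and 51.8, 5.29 and 20.8 FPKM (adjusted p = 0.175). Old library 1 was the highest of the 6 in each of these genes but Btg2, and the part of its mature cell markers in these values was not tested. Of 29 NF-kB and inflammatory genes 20 were higher, with a median of 0.19, or 0.30 without old library 1 and 0.31 without young library 1. Of 51 interferon-stimulated genes 32 were higher with a median of 0.29 (0.18 without young library 1), and the guanylate-binding protein Gbp6 had the smallest p, at 4.299, 14.2 and 6.24 and 71.9, 50.5 and 48.2 FPKM (adjusted p = 0.173).

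Myeloid priming genes stood higher in 13 of 17 cases, and their median of 0.95 was 0.73 without old library 1, and none passed. Prtn3, the neutrophil protease proteinase 3, stood at 29.5, 7.49 and 37.7 in young and 106, 79.7 and 88.6 FPKM in old libraries (adjusted p = 0.536), so it was high in all 3 old libraries. For lymphoid priming the count was 12 of 21 and the median 0.10 (-0.04 without old library 1 and 0.02 without young library 1). The adaptor Lax1 stood at 47.8, 36.3 and 25.96 against 21.5, 16.8 and 13.6 FPKM, and Gpr171, an orphan receptor, at 24.3, 14.9 and 23.7 against 46.3, 45.4 and 30.2 FPKM (adjusted p = 0.303).

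DNA repair genes and chromatin regulators stood slightly lower in old My-HSCs, again without a gene that passed. Of 57 repair genes 19 were higher with a median of -0.22, which was -0.33 without young library 1. Of the 57, 3 stood lower and 0 higher at an unadjusted p under 0.05 by limma. Of all 10458 tested genes, 232 stood lower and 521 higher at that p, and 55.2% were higher by sign. Ercc2, the helicase of nucleotide excision repair and transcription factor TFIIH, stood at 61.9, 40.9 and 62.9 in young and 33.9, 31.1 and 32.2 FPKM in old libraries (log2 difference -0.73 ± 0.21, adjusted p = 0.3297). Pms2, of mismatch repair, stood at 8.68, 7.95 and 10.7 and 1.699, 4.69 and 5.08 FPKM (adjusted p = 0.517). Of 63 chromatin regulators 18 were higher with a median of -0.18, with 5 lower and 0 higher at an unadjusted p under 0.05. Tet1, a 5-methylcytosine dioxygenase, stood at 27.2, 23.9 and 23.8 and 11.7, 15.4 and 13.2 FPKM (adjusted p = 0.469), and Arid1b, a subunit of SWI/SNF remodelling complexes, at 101, 94.3 and 96.3 and 72.4, 69.1 and 69.8 FPKM (adjusted p = 0.489). Young and old libraries did not overlap in these 4 genes, against no overlap downward in 8.07% of all tested genes. The 4 were chosen by their p within the lists, so this is a description only.

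Of 65 cell cycle genes 37 stood higher, and their median of 0.15 was -0.01 without old library 1 and 0.03 without young library 1. The replication helicase subunits Mcm7, at 48.9, 71.7 and 65.01 FPKM in young and 31.4, 41.6 and 33.1 FPKM in old libraries (adjusted p = 0.395), and Mcm6, at 84.6, 92.5 and 99.3 against 59.9, 64.7 and 56.2 FPKM (adjusted p = 0.549), stood lower in old cells. Cdkn2d, an inhibitor of CDK4 and CDK6, stood at 2.36, 4.11 and 7.602 in young and 9.77, 12.4 and 15.9 FPKM in old libraries (adjusted p = 0.517). Of 41 nuclear genes of oxidative phosphorylation 33 were higher with a median of 0.33 (0.47 without old library 1), yet none reached an unadjusted p under 0.05. Cox6c, a subunit of cytochrome c oxidase, stood at 12.8, 24.99 and 24.6 and 38.3, 33.5 and 39.03 FPKM (adjusted p = 0.725), and the ATP synthase subunit gene Atp5b at 94.5, 94.6 and 92.9 and 107, 118 and 125 FPKM (adjusted p = 0.729).

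**Figure D4:**
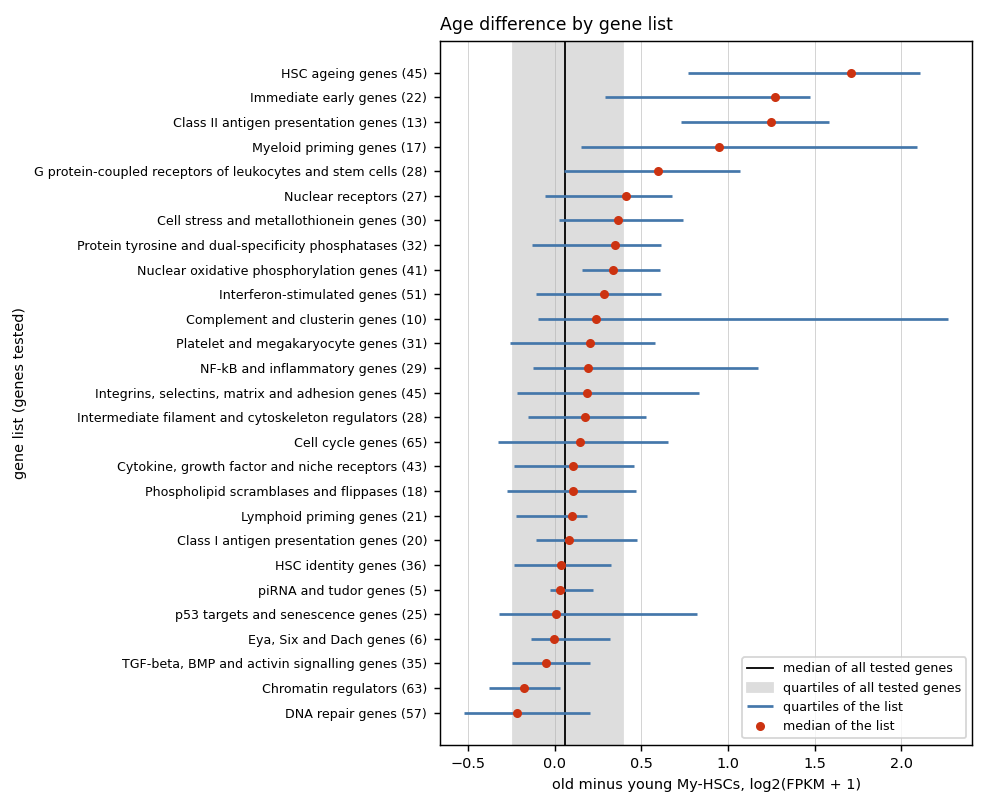
Old minus young difference in My-HSCs by gene list, in log2(FPKM + 1) on the x axis, with the number of tested genes of each list in brackets; points are list medians, blue bars the quartiles of the list, and the line and grey band the median (0.057) and quartiles of all tested genes. Marker lists of cell types are not drawn; of the lists drawn, HSC ageing genes lie farthest to the right at 1.71, and DNA repair genes farthest to the left at -0.22.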

How the data were processed

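The authors deposited 1 table of FPKM values for 14143 genes in each of 12 libraries. It does not hold every gene, so marker sums and list counts cover only the members that it holds. Per the labels' protocols, these came from Direct-Zol RNA and KAPA stranded mRNA libraries, read on a HiSeq3000 from both ends. Tools in the submitters' processing notes are bcl2fastq (2.17), STAR and DESeq2, on GRCm38 (mm10), without their roles. Not given in the sources used here are the annotation, the strand setting of the counting and how reads with several matches were treated. Read depth is unknown, so no interval from counts is given.

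Values were tested as log2(FPKM + 1) with limma 3.58.1 in R 4.3.3. One group-means model with an intensity trend was fitted to all 12 libraries (3 per group), with 8 residual and 5.04 prior degrees of freedom. Tests were two-sided, adjusted by Benjamini-Hochberg over 10458 genes, with a threshold of 0.05. Positions come from GENCODE M21, which matched 14139 of 14143 identifiers. The fit was tested on simulated data. The comparison, gene lists and rule for named genes (called genes, the 20 higher and 10 lower with the smallest p, up to 4 further members of a list by p, sort antigens, up to 5 genes each way by the difference between subsets, and the 3 highest markers of a list) were chosen with earlier results of these data known. List medians without a library, and a block shared by both fractions (limma's duplicateCorrelation), were added after seeing the data. A few genes that the rule names are not reported here.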

Additional observations from a re-analysis of the deposited data

How the results depend on the processing

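In the fit as reported, 24 genes were called higher and 2 lower in old My-HSCs. Counts of genes called higher moved by more than 1.5 times with a pseudocount of 0.1 (1 gene), no filter on low values (49), a minimum of 5 FPKM (14), values above 0 in all 6 libraries (9), TPM (2), 1 weight per group (73), and the share of genes at 0 as a covariate (1). Counts called lower moved with a pseudocount of 0.1 (0), a minimum of 5 FPKM (1), TPM (1), quantile normalization (4), 1 weight per group (4) and the covariate (0). Leaving out 1 library at a time gave 0 to 34 genes higher and 0 to 3 lower. Without 1 My-HSC library the count higher was 0 to 9, and without 1 Ly-HSC library it was 16 to 34. Deviations of young and old libraries with the same number in the labels correlated at -0.0455, 0.00412 and 0.0156, so they showed no strong shared deviation. Whether libraries of 1 number were handled together cannot be told from this. With the replicate block 14 genes were called higher and 1 lower. Old My-HSC and old Ly-HSC libraries of 1 number did deviate together (0.188, 0.206 and 0.164), and young ones did not (0.0487, 0.00563 and 0.0046). A block of age and number shared by both fractions, added after seeing the data, had a correlation of 0.0616 and called 23 genes higher, 2 lower and 0 for the difference between subsets. It kept 25 of the 26 calls and lost Cldn5. The difference between subsets was called for 2 genes with no filter and for 0 in every other alternative. The other scalings and filters stayed within 1.5 times, with 22 and 2 genes at a pseudocount of 0.5, 21 and 2 with the filter over 12 libraries, 24 and 3 with median-of-ratios scaling, and 23 and 3 with a robust prior. The median difference of all genes was 0.036 with median-of-ratios scaling, 0.028 as TPM and -0.02 with quantile normalization. The cause of these shifts was not tested, apart from the smaller number of genes or libraries that some settings hold. The TPM fit added 1 to values larger than the FPKM, so it changed the pseudocount in proportion as well as the scaling.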

Other observations

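The 6 My-HSC libraries fitted alone called 34 genes higher and 3 lower, of which 17 were among the 26. Among the others, chosen here after their values were seen, were Clca3a1, a chloride channel accessory protein, at 44.8, 38.3 and 26.5 FPKM in young and 144, 144 and 164 FPKM in old libraries (adjusted p = 0.0102 in that fit and 0.1602 over 12 libraries), and Dhrs3, a retinaldehyde reductase, at 2.49, 2.39 and 2.61 and 11.5, 18.3 and 22.6 FPKM (adjusted p = 0.0389 and 0.184). Id2 passed in that fit (adjusted p = 0.0128), as did Mt1 (adjusted p = 0.0128), Aldh1a1 (adjusted p = 0.0102) and Cysltr2 (adjusted p = 0.0374).

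Other lists held few or no genes that passed. Of 25 p53 targets and senescence genes 13 were higher, with a median of 0.01 (-0.12 without young library 1), and Plk2, a polo-like kinase, stood at 54.1, 30.2 and 59.6 FPKM in young and 176, 134 and 146 FPKM in old libraries (adjusted p = 0.295). Of 20 class I antigen presentation genes 11 were higher with a median of 0.08 (0.21 without old library 1 and 0.27 without young library 1), and the immunoproteasome subunit Psmb8 stood at 31.6, 52.6 and 43.5 and 69.4, 77.5 and 67.4 FPKM (adjusted p = 0.295). Of 45 integrin, selectin, matrix and adhesion genes 29 were higher with a median of 0.18 (0.32 without old library 1 and 0.09 without young library 1). Selp and Matn4 rose. Nes, which was on this list but encodes an intermediate filament protein and no adhesion molecule, fell. Alcam, an adhesion molecule of the immunoglobulin family, stood at 7.49, 10.8 and 9.99 and 27.9, 32.9 and 25.2 FPKM (adjusted p = 0.184). Among cytoskeleton regulators the GTPase Rac1 stood at 55.2, 46.9 and 57.9 and 87.6, 97.1 and 81.6 FPKM (adjusted p = 0.388), and Cdc42, a polarity GTPase of HSCs, at 38.5, 55.4 and 61.9 and 66.9, 77.8 and 80.8 FPKM (adjusted p = 0.689).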
